A study of Mus musculus with 4 samples.

Results

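Late-gaining CpG clusters were short CpG-dense regions with a low methylation level in iPSCs, a level at most slightly higher in NESTIN-GFP precursors, an intermediate level in iPSC-DA neurons and a low level in primary mdDA neurons. A CpG cluster was a run of at least 10 cytosine positions on an autosome, each with at least 5 calls in all 4 libraries and under 100 bp from its neighbour, and its level was the percentage of methylated calls among all calls of its positions. A cluster was late-gaining when its level was under 20% in iPSCs and in mdDA neurons, rose by less than 10 percentage points from iPSCs to NESTIN-GFP precursors and by at least 20 points from iPSCs to iPSC-DA neurons, and was under 55% in iPSC-DA neurons. Of 14973 clusters, 1738 met these limits, or 11.6%, and they held 49843 of 367731 cluster positions. Since the measured levels chose the clusters, their levels are given as a description without a test.

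Genomic DNA was cut at CCGG sites with the enzyme MspI to enrich for CpG-dense fragments, treated with bisulfite and sequenced (reduced representation bisulfite sequencing, RRBS). The 4 mouse libraries, 1 per group, came from undifferentiated Pitx3 Gfp/+ iPSCs, from Nestin Gfp/+ precursors sorted by GFP after 14 days of differentiation, from Pitx3 Gfp/+ iPSC-DA neurons sorted by GFP after 4 weeks of differentiation, and from Pitx3 Gfp/+ mdDA neurons sorted at E14.5 from the embryonic brain. The iPSCs had been made from embryonic fibroblasts with retroviral Oct4, Klf4, Sox2 and cMyc, and both differentiated populations were grown on MS5 stromal feeder cells with inhibition of BMP and TGF-β signalling. PITX3, a transcription factor of mdDA neurons, and NESTIN, an intermediate filament of neural precursors, were read through different GFP alleles, so that the precursors were not of the Pitx3 Gfp/+ line, and the label of that library reads Nestin-GFP neurons. No group had a replicate, so differences compare these libraries and not the conditions. Intervals of levels and of differences cover counting error only.

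Most CpGs of the mammalian genome are methylated, whereas dense runs of CpGs, the CpG islands (CGIs) at many promoters, are usually free of methylation. Methylation of a promoter CGI is associated with stable silencing of the gene. New methylation is set by the DNA methyltransferases DNMT3A and DNMT3B, copied at replication by DNMT1, and oxidised by the TET enzymes on the way to its removal.

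Names of genes were available for clusters whose spacing of covered positions fell on the CpGs of exactly 1 promoter window in RefSeq (GRCm38.p6), which was so for 426 late-gaining clusters, or 24.5%, with 447 gene symbols. The stretches printed here lay upstream of the start site of the named gene, and were chosen because they are the windows of late-gaining clusters with the largest gain, the most positions or the most precursor calls, or of dopaminergic neuron genes. Capitals mark the cytosines, and the guanines whose partner cytosine was read on the other strand, that had at least 5 calls in all 4 libraries.
Tet2 (chr3:133544516-133544640, minus strand): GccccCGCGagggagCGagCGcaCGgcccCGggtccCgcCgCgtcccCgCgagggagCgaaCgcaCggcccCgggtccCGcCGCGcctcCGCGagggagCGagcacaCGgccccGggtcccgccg
Epb41l4b (chr4:57143157-57143402, minus strand): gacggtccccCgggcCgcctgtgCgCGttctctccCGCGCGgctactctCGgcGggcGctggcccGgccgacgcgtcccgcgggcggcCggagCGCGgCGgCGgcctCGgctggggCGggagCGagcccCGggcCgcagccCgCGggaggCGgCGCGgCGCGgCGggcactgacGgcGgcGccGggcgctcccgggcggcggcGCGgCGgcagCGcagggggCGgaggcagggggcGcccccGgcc
Sdk1 (chr5:141241291-141241533, plus strand): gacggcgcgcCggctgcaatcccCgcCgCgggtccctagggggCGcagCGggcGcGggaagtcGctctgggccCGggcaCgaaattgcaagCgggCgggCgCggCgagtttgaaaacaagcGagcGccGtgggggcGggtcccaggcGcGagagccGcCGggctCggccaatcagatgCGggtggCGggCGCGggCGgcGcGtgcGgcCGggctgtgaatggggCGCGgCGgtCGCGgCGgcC
Jazf1 (chr6:53068625-53068732, minus strand): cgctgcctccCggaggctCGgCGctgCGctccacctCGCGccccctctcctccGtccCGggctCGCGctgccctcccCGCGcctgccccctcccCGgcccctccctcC
Foxred2 (chr15:77956729-77956796, minus strand): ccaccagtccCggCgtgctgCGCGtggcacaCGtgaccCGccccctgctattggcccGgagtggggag
En1 (chr1:120602237-120602350, plus strand): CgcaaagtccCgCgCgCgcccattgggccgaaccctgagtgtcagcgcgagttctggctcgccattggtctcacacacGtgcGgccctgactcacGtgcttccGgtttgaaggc
Foxa2 (chr2:148046141-148046198, minus strand): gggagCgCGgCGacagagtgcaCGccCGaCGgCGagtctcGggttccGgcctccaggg
Drd2 (chr9:49340304-49340397, plus strand): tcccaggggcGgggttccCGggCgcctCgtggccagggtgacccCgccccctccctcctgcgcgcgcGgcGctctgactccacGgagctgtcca

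In the capitals of the Tet2 stretch, the methylation level was 2.76% in iPSCs, 3.35% in NESTIN-GFP precursors, 35.5% in iPSC-DA and 2.79% in mdDA neurons. Each of its 37 positions was between 23.3% and 45.3% in iPSC-DA neurons, and none exceeded 9.09% in the precursors. In the 15 positions of the Foxa2 stretch, the level was 1.51% in iPSCs, 3.54% in precursors, 42.4% in iPSC-DA and 1.18% in mdDA neurons. In both stretches every position in iPSC-DA neurons was thus above every position in the precursors, an order that the rule favoured. This was not so in Sdk1, Drd2 and Jazf1. The highest position in precursors was at 62.5%, 37.5% and 26.1% there, and the lowest position in iPSC-DA neurons at 19.2%, 0% and 7.41%, respectively. In the 64 positions of the Epb41l4b stretch the level in iPSC-DA neurons was 33.3%, with single positions between 18.1% and 56.6%, against 3.04% in precursors. The Jazf1 stretch was less even, with single positions between 7.41% and 84.2% in iPSC-DA neurons around a level of 44.0%.

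Over all late-gaining clusters, the median level was 3.92% in iPSCs, 8.94% in NESTIN-GFP precursors, 36.3% in iPSC-DA and 4.49% in mdDA neurons. The level ranged from 0.27% to 13.9% in iPSCs, from 0% to 19.4% in precursors, from 22.5% to 54.9% in iPSC-DA and from 0.41% to 17.6% in mdDA neurons, so that iPSC-DA neurons did not overlap with any of the other libraries, as the limits largely fixed. Within iPSC-DA neurons, 351 clusters lay from 20% to 30%, 837 from 30% to 40%, 486 from 40% to 50% and 64 from 50% to 55%. The median gain from iPSCs to iPSC-DA neurons was 32.0 points. The clusters nearest to the limit on this gain had 20.002 points inside and 19.998 points outside, and those nearest to the limit of 55% were at 54.9% inside and 55.03% outside, where 60 clusters met all other limits. The limits of 20% in iPSCs and in mdDA neurons had few clusters near them, with 13.9% and 17.6% as the highest levels inside and 24.3% and 20.3% as the lowest outside.

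**Figure D1:**
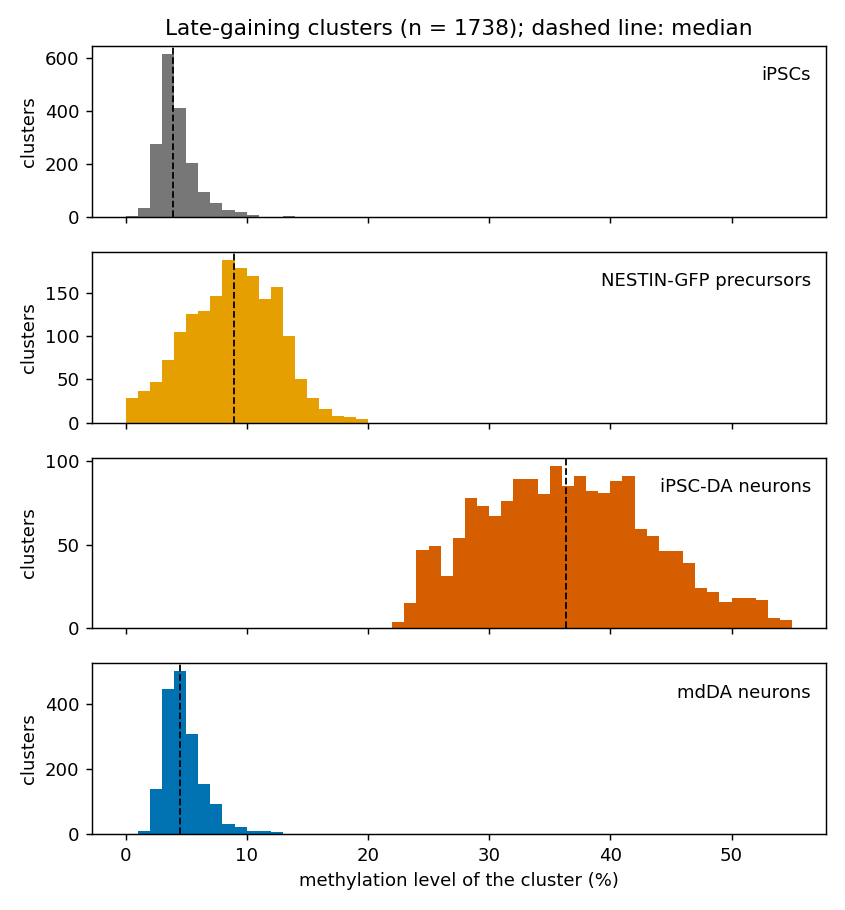
Histograms of the methylation level (%) of the 1738 late-gaining clusters in each library, in bins of 1 percentage point, with the dashed line at the median. Levels in iPSCs and mdDA neurons sit in narrow peaks with medians of 3.92% and 4.49%, those in precursors spread from 0% to 19.4%, and those in iPSC-DA neurons spread from 22.5% to 54.9%.

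The precursors were not all at the level of iPSCs. The level was higher in NESTIN-GFP precursors than in iPSCs in 1557 of the 1738 clusters, or 89.6%, with a median change of 4.89 points. As a description of counting error in values that the rule used, and not as a test, the 95% interval of this change (Newcombe) lay above 0 in 1328 clusters, and its upper bound was under the limit of 10 points in 1197 clusters, or 68.9%. A gain only after the precursor stage thus means here a change under 10 points in the precursors, and not a change of 0. The clusters nearest to this limit were at 9.983 points inside and 10.0007 points outside, and 1934 clusters at or above it met the other limits. With a limit of 5 points in place of 10, 892 clusters remained.

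Late-gaining clusters were set beside clusters that met the limits in iPSCs and mdDA neurons and gained at least 20 points in iPSC-DA neurons, but had changed by 10 to 20 points (intermediate, 1147 clusters) or at least 20 points (early-gaining, 1038 clusters) in the precursors, without the limit of 55%. A further 8131 clusters were under 20% in every library and gained less than 10 points (low clusters). The median level in iPSC-DA neurons was 36.3% for late-gaining, 39.9% for intermediate and 43.0% for early-gaining clusters, and the quartiles of these classes overlapped. Late-gaining clusters had a median of 22 positions over 198 bp, close to the 21 positions over 201 bp of low clusters, whereas early-gaining clusters had 15 positions over 178 bp. The median density was 12.1 covered positions per 100 bp in late-gaining, 11.5 in low, 10.7 in intermediate and 9.11 in early-gaining clusters.

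**Figure D2:**
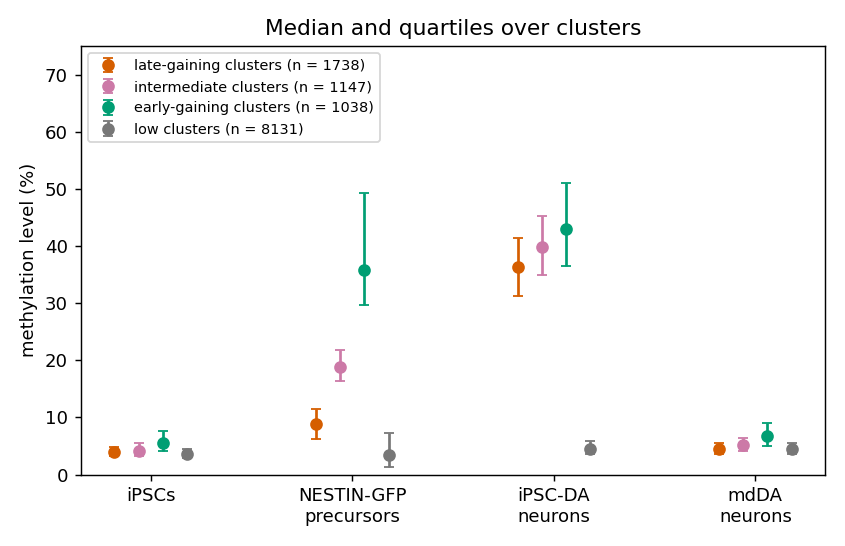
Median methylation level (%) of each class of clusters in each library, with bars from the lower to the upper quartile over clusters. The classes differ by construction in NESTIN-GFP precursors, where their medians run from 3.41% in low to 35.7% in early-gaining clusters.

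Methylation in iPSC-DA neurons was spread over the positions of a cluster and was seldom complete, as the limits on the cluster level partly fixed. Per late-gaining cluster, the median share of positions between 20% and 80% in iPSC-DA neurons was 88.9%. It was 93.75% in intermediate and 92.3% in early-gaining clusters, so that this was not particular to late-gaining clusters. Of all positions in late-gaining clusters, 84.7% were between 20% and 80% methylated in iPSC-DA neurons, 32.6% were between 40% and 60%, 2.12% were above 80% and 2.14% were below 5%. In iPSCs 78.8% of the same positions were below 5%, and in mdDA neurons 76.4% were. In 471 clusters every position was between 20% and 80% in iPSC-DA neurons, while 407 clusters had at least 1 position below 5% and 258 had at least 1 above 80%. The SD over the positions of a cluster had a median of 12.3 points in iPSC-DA neurons. In the 977 clusters with at least 20 positions, the level in iPSC-DA neurons was 36.6%, 36.0%, 36.3%, 35.9% and 36.0% in 5 equal stretches from the left to the right end, so that no stretch stood out. For 6811 pairs of adjacent positions, taken as the strands of a CpG, the median level in iPSC-DA neurons was 38.2% on either base, and the median absolute difference within a pair was 9.16 points.

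The precursor library was the shallowest, with 31419979 calls against 68545752 to 79648099 in the others, and a median of 485 calls per late-gaining cluster against 2260 in iPSCs, 2554 in iPSC-DA and 2415 in mdDA neurons. Within late-gaining clusters, the level in the precursors moved with the number of precursor calls of a position. It was 15.4% at positions with 5 to 9 calls, 11.1% with 10 to 19, 8.11% with 20 to 39, 6.67% with 40 to 79 and 5.90% with at least 80. The level in iPSC-DA neurons stayed between 36.2% and 36.8% at the same positions, and the level in iPSCs moved from 4.81% to 0.97%. In early-gaining clusters the level in the precursors was between 38.8% and 46.3% over the same range of calls, without such a fall, whereas in low clusters it fell as well, from 8.53% to 1.14%. The part of call number in the levels of the precursors was not tested.

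Over positions with at least 20 precursor calls, of which 1370 late-gaining clusters had at least 5, the median level was 3.17% in iPSCs, 6.92% in precursors, 36.0% in iPSC-DA and 3.57% in mdDA neurons. The median change from iPSCs to precursors was then 3.74 points, and 100 of these clusters had a change of 10 points or more. Positions that lay between the ends of a late-gaining cluster, but had under 5 calls in the precursors and so did not enter the rule, numbered 6085 in 1001 clusters. There the level was 6.94% in iPSCs, 20.5% in precursors, 37.4% in iPSC-DA and 8.14% in mdDA neurons. Of the 650 clusters with at least 3 such positions, 647 were higher at them in the iPSC-DA library than in iPSCs, by at least 20 points in 517. Unused positions thus shared the level of their cluster in iPSC-DA neurons but were higher in the precursors, although they come from the same libraries and partly the same reads. In low clusters 29313 such positions were at 7.21% in precursors and 7.98% in iPSC-DA neurons.

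**Figure D3:**
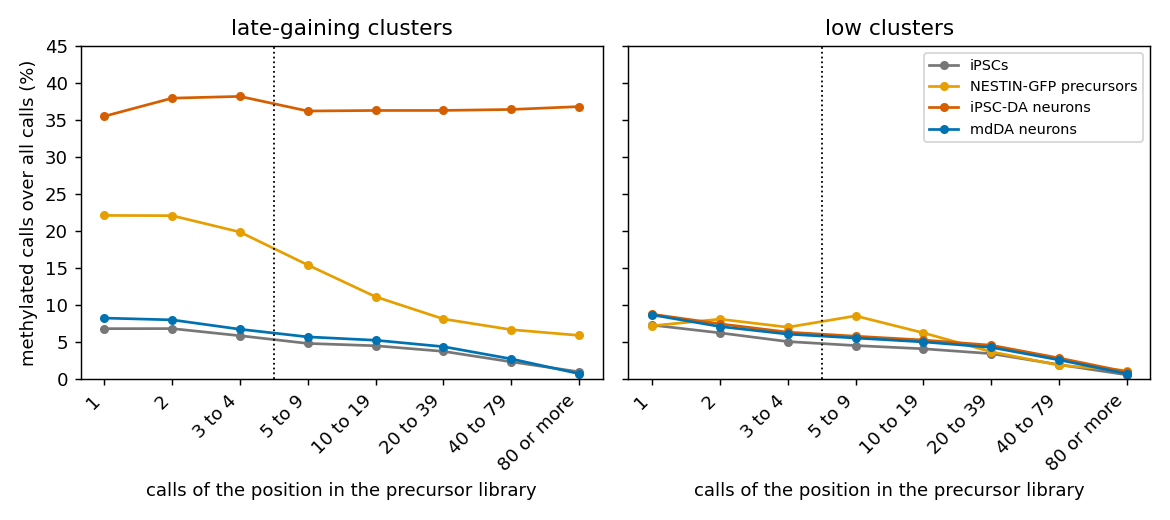
Methylated calls over all calls (%) in each library, at positions grouped by their number of calls in the precursor library, for late-gaining and low clusters. Positions right of the dotted line entered the rule, and in late-gaining clusters the precursor level falls from 15.4% to 5.90% there while iPSC-DA neurons stay between 36.2% and 36.8%.

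Outside the clusters, the gain continued in iPSC-DA neurons. Flanks were the positions within 500 bp of a cluster that belonged to no cluster, and 759 late-gaining clusters had a flank in which 3 or more positions reached 5 calls in every library. The median level of these flanks was 6.29% in iPSCs, 27.3% in NESTIN-GFP precursors, 38.4% in iPSC-DA and 8.07% in mdDA neurons, with a median of 76 calls in the precursors and 430 to 440 in the others. By a two-sided Fisher's exact test with Benjamini-Hochberg adjustment over 5710 flanks, and with a difference of at least 20 points, 601 flanks (79.2%) were higher in iPSC-DA neurons than in iPSCs and 0 were lower. Over flanks of all clusters the share called higher was 32% and the share called lower 0.0701%. Beside intermediate and early-gaining clusters the share called higher was 87.4% and 87.2%. Against mdDA neurons 552 flanks (72.7%) were higher in iPSC-DA neurons and 0 lower, with 25.9% higher and 0.315% lower over all flanks. Beside intermediate and early-gaining clusters, 81.9% and 79.3% were higher, so that the gain in flanks was not particular to late-gaining clusters. The calls of a flank were read as independent, and the flanks lay beside regions chosen for their gain, so that these counts describe the reach of the gain and not its presence.

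Between iPSC-DA neurons and precursors, the flanks, which the rule did not choose, had differences in both directions. In 227 flanks (29.9%) the level was higher in iPSC-DA neurons than in precursors and in 87 (11.5%) it was lower, against 9.89% and 24.4% over all flanks, with a median difference of 8.49 points. Flanks of intermediate clusters had like shares, with 32.1% higher and 10.9% lower. Precursors were higher than iPSCs in 376 flanks (49.5%) and lower in 0, with 44.1% higher and 0.035% lower over all flanks, so that the share beside late-gaining clusters was near that of flanks in general. Flanks of low clusters had median levels of 14.1% in precursors, 8.18% in iPSC-DA neurons, 5.56% in iPSCs and 7.60% in mdDA neurons. With at least 20 calls per position, an alternative chosen after seeing the data, 190 flanks of late-gaining clusters remained, of which 97 (51.1%) were higher in iPSC-DA neurons than in precursors and 3 were lower, against 16.1% higher over all flanks, and the median difference was 20.7 points. At that minimum, 31.1% of the flanks of late-gaining clusters were higher in precursors than in iPSCs, against 31.8% over all flanks, with a median difference of 10.9 points in place of 19.7.

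With distance from the edge of a late-gaining cluster, the level in precursors went from 8.76% inside to 29.0% at 100 to 150 bp, 36.0% at 400 to 500 bp and 39.3% at 750 to 1000 bp. In iPSC-DA neurons it was 36.3% inside and between 36.3% and 40.3% outside, and at 750 to 1000 bp the level of 39.4% was close to that of precursors. The inside level of precursors was held down by the rule, and low clusters also had a step from 4.14% inside to 20.2% at 100 to 150 bp in precursors. In mdDA neurons the level beside late-gaining clusters went from 8.24% at 100 to 150 bp to 12.8% at 750 to 1000 bp.

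**Figure D4:**
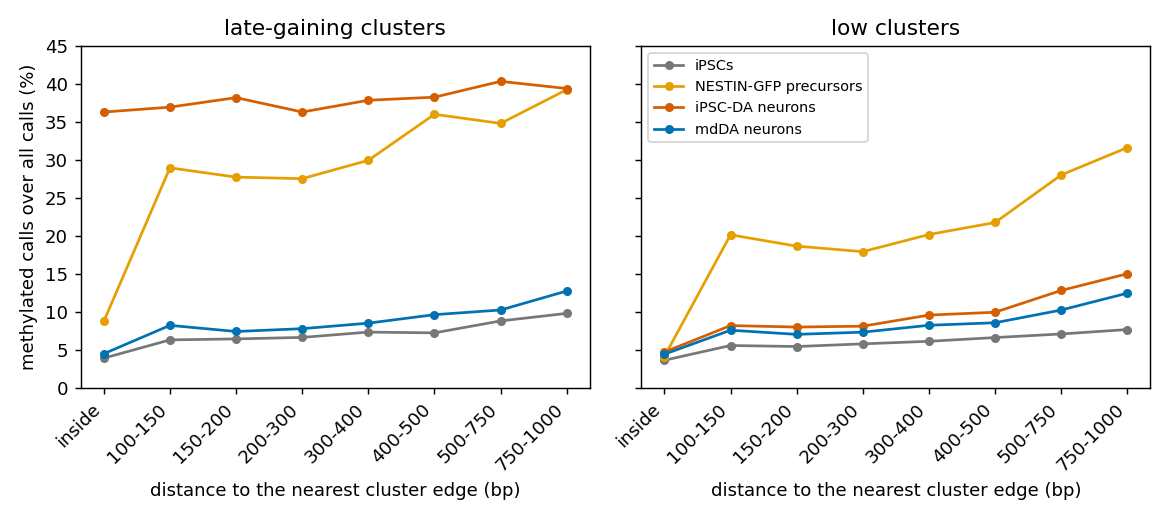
Methylated calls over all calls (%) in each library, inside clusters and at positions outside any cluster by their distance (bp) to the nearest edge of a late-gaining or a low cluster. Beside late-gaining clusters, iPSC-DA neurons stay between 36.3% and 40.3% from inside to outside, while precursors are at 8.76% inside and at 29.0% from 100 to 150 bp.

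Where late-gaining clusters had a close neighbour, it was seldom a low cluster. Another cluster was less than 1000 bp away for 896 of them (51.6%), and this neighbour was itself late-gaining in 422 cases (47.1%), intermediate in 24.6%, early-gaining in 15.1% and low in 30 cases (3.35%). Over all clusters with such a neighbour, the neighbour was late-gaining in 13.0% and low in 59.1%. The other classes that gained in iPSC-DA neurons were similar, since the neighbour was late-gaining for 39.4% of intermediate and 29.6% of early-gaining clusters, and low for 2.62% and 2.21%. Whether neighbours belong to the same CGI was not tested. Among chromosomes, the share of clusters that were late-gaining was lowest on chromosome 10, with 46 of 754 clusters (6.10%), and highest on chromosome 13, with 93 of 567 (16.4%). The ratio of calls in iPSC-DA over mdDA neurons was taken relative to that over all clusters. It was 1.28 on chromosome 10 and 0.894 on chromosome 13. Clusters under 20% in iPSCs and mdDA neurons that gained at least 20 points in iPSC-DA neurons made up 23.5% of clusters on chromosome 10. They made up 28.6% on chromosome 13, and the part of the calls in these shares was not tested.

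Among the 5 clusters with the largest gain were those of Foxred2, an oxidoreductase gene of the endoplasmic reticulum, and Scamp5, which encodes a membrane protein of secretory vesicles. In the Foxred2 cluster (chr15:77787169-77787216 in the coordinates of the files, whose chromosome lengths fit mm9), 64 to 17 bp upstream of the start site, the level was 4.17% in iPSCs, 6.87% in precursors, 54.9% in iPSC-DA and 3.97% in mdDA neurons. In the Scamp5 cluster (chr9:57315802-57315840), 27 to 65 bp downstream of the start site, the values were 3.26%, 4.6%, 54.6% and 3.46%, respectively. The flank of Scamp5 had the opposite order, with 52.3% in precursors and 21.1% in iPSC-DA neurons (adjusted p = 7.81e-12, Fisher's exact test). The other 3 clusters, at chr12:58676979-58677171, chr3:122432127-122432214 and chr11:95866750-95866857, matched no promoter and reached 54.5%, 51.9% and 52.8% in iPSC-DA neurons, from 4.16%, 2.0% and 2.94% in iPSCs.

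The clusters with the most positions or the most precursor calls rested on the most data. Kctd12, which encodes an auxiliary subunit of GABA-B receptors, had 5220 precursor calls over 123 positions (chr14:103380882-103381956), with 3.56% in iPSCs, 4.73% in precursors (95% CI 4.19% to 5.34%, Wilson), 34.4% in iPSC-DA and 3.73% in mdDA neurons. Tet2, which encodes an enzyme that oxidises 5-methylcytosine, had 2974 precursor calls over 52 positions (chr3:133207490-133207676), with 3.17%, 3.13% (2.56% to 3.82%), 36.9% and 3.56%, respectively. The change from iPSCs to precursors at Tet2 was -0.04 points (95% CI -0.79 to 0.76), so that the precursors differed from iPSCs by less than the counting error. Its flank, with 3 positions and 25 precursor calls, was at 72% in precursors and 36.1% in iPSC-DA neurons (adjusted p = 0.0175, Fisher's exact test). Epb41l4b, a gene of the band 4.1 family, had 138 positions (chr4:57155863-57156375), with 2.30% in iPSCs, 5.19% in precursors, 31.8% in iPSC-DA and 2.93% in mdDA neurons.

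Sdk1, which encodes an adhesion molecule of synapses, had 139 positions (chr5:141717036-141717869) with levels of 3.25% in iPSCs, 9.25% in precursors (8.34% to 10.3%), 44.8% in iPSC-DA and 4.03% in mdDA neurons. Its flank was at 7.41% in precursors and 39.5% in iPSC-DA neurons (adjusted p = 3.09e-19, Fisher's exact test), so that the late gain extended past the cluster there. Chd5, a chromatin remodeller gene, had 126 positions (chr4:151712729-151713537) with 3.90%, 9.98%, 32.2% and 4.57% in the same order. The cluster of Jazf1 and Gm33097 had the most positions, 160 (chr6:53017876-53018716), and went from 3.18% in iPSCs to 11.0% in precursors and 29.6% in iPSC-DA neurons, against 3.43% in mdDA neurons. The clusters at chr5:24032056-24032935 and chr3:58809429-58810344 matched no promoter and had 33.2% and 37.9% in iPSC-DA neurons, with 7.48% and 13.2% in precursors.

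Of the 6 matched clusters at dopaminergic neuron genes, 3 were late-gaining, those of En1 and Foxa2, transcription factors that specify and maintain midbrain DA neurons, and of Drd2, the D2 dopamine receptor. Over all matched clusters 10.5% were late-gaining. At En1 (chr1:122498789-122498917) the level was 4.38% in iPSCs, 12.0% in precursors (8.93% to 15.8%), 32.9% in iPSC-DA and 4.94% in mdDA neurons. At Foxa2 (chr2:147871887-147872012) it was 2.95%, 4.87% (3.72% to 6.34%), 43.8% and 3.02%, respectively. At Drd2 (chr9:49148419-49148813) it was 3.49%, 10.4% (8.10% to 13.2%), 36.4% and 3.66%. Foxa2 thus stayed near the iPSC level in the precursors, whereas at En1 the upper bound of the change from iPSCs to precursors, 11.5 points, passed the limit of 10 points. Lmx1b, another transcription factor of DA neurons, was intermediate with 22.6% in precursors and 43.6% in iPSC-DA neurons. The promoter-matched clusters of Nr4a2, which activates the genes of dopamine synthesis and transport, and of Gch1, an enzyme of tetrahydrobiopterin synthesis, stayed low. They had 4.11% and 5.24% in iPSC-DA neurons. Methylation elsewhere in these genes was not examined here.

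Developmental transcription factors had 22 late-gaining clusters among 61 matched ones (36.1%), besides 12 intermediate, 2 early-gaining and 22 low clusters. Over all matched clusters the late-gaining share was 10.5%. The median gain was 23.8 points at these factors against 1.27 points over all matched clusters. The highest level in iPSC-DA neurons was that of Six2, a factor of kidney progenitors, with 3.59% in iPSCs, 12.9% in precursors, 51.0% in iPSC-DA and 3.88% in mdDA neurons. Isl1, a LIM homeodomain factor of motor neurons, had 5.89%, 8.91%, 44.8% and 7.51%, respectively. Both factors belong to lineages other than mdDA neurons. In Pax2, a factor of the midbrain-hindbrain boundary, the level was 3.49% in iPSCs, 2.62% in precursors, 35.6% in iPSC-DA and 4.2% in mdDA neurons, so that precursors and iPSCs differed by less than counting error. The same held for Lhx1 and Lhx4, LIM homeodomain factors of developing neurons, with 1.84% and 2.61% in precursors, 2.5% and 5.93% in iPSCs and 37.3% and 36.8% in iPSC-DA neurons. Of the effectors of Notch signalling, Hes5 went from 9.84% in precursors to 31.9% in iPSC-DA neurons and Hey2 from 10.5% to 43.5%. Besides Foxa2, the others were Sox13, Sox14, Ebf4, Gata2, Gata5, Foxd2, Foxl2, Nkx1-2, Nkx3-2, Barhl2, Hoxa13, Ascl2, Pou4f1 and Satb1, between 24.1% at Gata5 and 43.0% at Hoxa13 in iPSC-DA neurons. Pou4f1 had another matched cluster, which was intermediate, with 14.9% in precursors and 27.1% in iPSC-DA neurons.

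Axon guidance genes had 6 late-gaining clusters of 22 (27.3%), besides 2 intermediate, 1 early-gaining and 8 low ones. The late-gaining share over all matched clusters was 10.5%. Rgmb, a co-receptor of BMP and ligand of Neogenin, had the highest level of these in iPSC-DA neurons, with 2.94% in iPSCs, 9.67% in precursors, 41.3% in iPSC-DA and 3.13% in mdDA neurons. The netrin receptor gene Unc5a had 2.0%, 6.12%, 28% and 2.48%, and Ntn3 and Ntn4 of the netrin family had 27.3% and 29.2% in iPSC-DA neurons. The late-gaining cluster of Sema4b, a semaphorin gene, was at 5.48% in iPSCs and 5.75% in precursors, which differed by less than counting error. It was at 31.5% in iPSC-DA neurons. Another matched cluster of Sema4b (chr7:87343435-87343639) was low, with 2.83% in iPSCs, 0.70% in precursors and 2.59% in iPSC-DA neurons. The ephrin gene Efna5 was at 9.92% in precursors and 28.7% in iPSC-DA neurons.

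Secreted signals and their receptors had 11 late-gaining clusters of 41 (26.8%), besides 7 intermediate, 7 early-gaining and 10 low ones. Over all matched clusters 10.5% were late-gaining. Of the WNT ligands, Wnt2b, Wnt4, Wnt10b and Wnt11 had a late-gaining cluster, between 29.9% and 35.3% in iPSC-DA neurons and between 6.55% and 14.9% in precursors. Another matched cluster of Wnt11 had the opposite order, with 27.9% in precursors and 16.2% in iPSC-DA neurons. Wnt1, the WNT ligand of the midbrain-hindbrain boundary, was early-gaining, with 34.1% in precursors and 39.3% in iPSC-DA neurons. The WNT antagonist gene Sfrp2 was at 4.01% in iPSCs, 3.55% in precursors, 32.3% in iPSC-DA and 4.0% in mdDA neurons, so that precursors and iPSCs differed by less than counting error. Fgf12, an intracellular member of the FGF family that binds sodium channels, had 4 matched clusters, of which 2 were late-gaining with 46.3% and 40.2% in iPSC-DA neurons, 1 was intermediate and 1 early-gaining. The 2 late-gaining clusters (chr16:28446181-28446236 and chr16:28446370-28446813) lay next to each other, and the other 2 lay at another promoter of the gene. Igf2, which encodes a growth factor, was at 46.6% in iPSC-DA neurons and 6.69% in precursors, and Ihh, Bmp6 and Fgf18 were at 35.3%, 38.6% and 37.1% in iPSC-DA neurons. Igf2 was also the late-gaining cluster among 4 clusters of imprinted genes.

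Ion channels and neurotransmitter receptors had 18 late-gaining clusters of 48 (37.5%), besides 13 intermediate, 6 early-gaining and 5 low ones. Over all matched clusters the late-gaining share was 10.5%. Scn8a, a voltage-gated sodium channel gene, had the highest level in iPSC-DA neurons among them, with 2.0% in iPSCs, 9.22% in precursors, 44.5% in iPSC-DA and 2.82% in mdDA neurons. Cacna1d, the L-type calcium channel gene Cav1.3 that is used for pacemaking in DA neurons, was at 2.91%, 7.39%, 33.0% and 2.70%, respectively. Its 92 positions had 1936 precursor calls, with a 95% counting interval of 3.34 to 5.77 points for the change from iPSCs to precursors. The potassium channel genes Kcna2, Kcnd2, Kcnj4 and Kcnk2 were between 33.0% and 40.1% in iPSC-DA neurons and between 5.41% and 10.0% in precursors. Of receptors, Htr6 and Htr7 for serotonin were at 24.3% and 40.7% in iPSC-DA neurons, Chrm4 and Chrna4 for acetylcholine at 28% and 33.1%, Grm8 and Grik4 for glutamate at 43.0% and 23.1%, and Gabbr2 for GABA at 34.6%. Cacnb4, Cacna2d2, Hcn4 and Adra1b were between 29.8% and 39.3%.

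Housekeeping genes (ribosomal proteins, proteasome subunits, translation factors, mitochondrial respiration and the like) had 0 late-gaining clusters of 126, of which 115 were low, with a median level of 4.49% in iPSC-DA neurons. The late-gaining share over all matched clusters was 10.5%. Germline genes had 0 of 9, and Ddx4, a germ cell helicase gene, was at 8.28% in iPSCs, 73.4% in precursors, 79% in iPSC-DA and 75.1% in mdDA neurons, unlike the late-gaining pattern in every differentiated population. No cluster was matched to a protocadherin, but promoters of chromosome 18, where the clustered protocadherin genes lie, were not used here, so that this count says nothing of these genes. The lists were chosen with earlier results of these data known, and genes without a matched cluster were not analysed, so the counts describe the matched clusters alone.

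**Figure D5:**
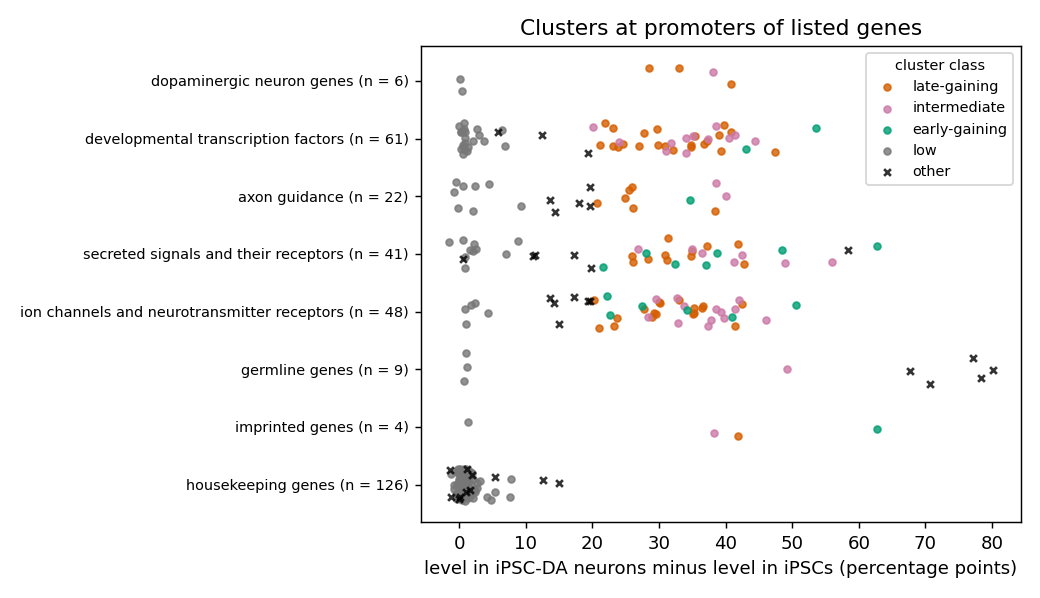
Gain from iPSCs to iPSC-DA neurons (percentage points) of each cluster matched to a promoter of a listed gene, coloured by class, with points spread vertically for sight only. Late-gaining clusters occur among transcription factors (22 of 61), axon guidance genes (6 of 22), signals (11 of 41) and channels and receptors (18 of 48), and 0 of 126 housekeeping clusters are among them. Over all matched clusters, 426 of 4075 (10.5%) are late-gaining.

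Around the start sites of matched genes, the level of late-gaining clusters was even, as the limits on the cluster level partly fixed. Each step pooled a different set of clusters. In steps of 50 bp from 500 bp upstream to 500 bp downstream, it was between 32.7% and 39.3% in iPSC-DA neurons, with 34.3% in the step before and 35.2% in the step after the start site. In the same steps precursors were between 6.60% and 11.1%. The windows of 300 bases around these start sites (250 before, 50 after) had a median GC content of 71.7% and a median of 33 CpGs. The values were 71.7% and 34 for intermediate, 69% and 26.5 for early-gaining and 69.3% and 32 for low clusters. Over all 32851 promoters they were 52.7% and 7. All matched windows held CCGG, the MspI site, as did 52.8% of all promoters.

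Motifs were counted as exact letters on either strand. CCGGAAG, the core of ETS factor sites, which holds CCGG, was in 5.40% of the windows of late-gaining clusters, 7.27% of intermediate, 7.86% of early-gaining and 23% of low clusters, and in 8.86% of all promoters. TGACGTCA, the cyclic AMP response element, was in 1.17% of the late-gaining and 3.53% of the low windows, and in 1.79% of all promoters. GGGCGG, the core of the GC box, was in 85.7% and 84.7%, and in 35.7% of all promoters. CACGTG, the E-box, was in 7.04% and 11.6%, CCAAT in 24.4% and 29.1% and TATAAA in 3.76% and 2.69%, with 7.15%, 37.4% and 13.6% over all promoters. Of these 6 motifs, the share with CCGGAAG thus differed most between late-gaining and low windows in percentage points, while the shares with a GC box were close. These shares are descriptions without a test, and the listed genes contribute to them.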

How the data were processed

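The 4 RRBS libraries, 1 per group, were used as deposited. Reads had been trimmed with Trim Galore 0.3.5 and aligned with Bismark 0.10.1 per the submitters' processing notes, and Bareback is also named in the study's methods. The authors deposited, for each cytosine position, counts of methylated and unmethylated calls without normalization and the percent of methylated calls. Each strand of a CpG has its own position. The genome build is not given in the sources used here, and chromosome lengths fit mm9, of which no genome was used.

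Clusters, levels and limits were computed as stated in the report, with Wilson intervals for levels and Newcombe intervals for differences (95%). PCR copies are not independent molecules, so that intervals and Fisher's tests cover counting error only. Flank tests used a two-sided Fisher's exact test with Benjamini-Hochberg adjustment. The members and gene lists were chosen with earlier results of these data known, and some gene patterns were corrected after hits to genes of other families.

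A gene was assigned where all listed positions of a cluster inside a promoter window (RefSeq, GRCm38.p6) fell on CpGs, with at least 20 listed and 6 covered positions, at exactly 1 place. Chromosomes, compared afterwards, were the same for 4075 of 4082 such clusters (99.8%), and the others were dropped. Named were the 5 clusters each with the largest gain, the most positions and the most precursor calls, the values at each limit, and late-gaining clusters of the lists. From the comparison classes, Lmx1b, Nr4a2, Gch1, Wnt1 and Ddx4 were named after their values were seen. Promoters of chromosome 18 were not used here. Alternatives were other minima of calls and positions, gaps, weights, thinning, strand merging, precursor limits, flank widths and leaving out chromosome 10. The code was tested on simulated data and ran in Python 3.11.15 with numpy 2.4.6, pandas 2.3.3, scipy 1.17.1, statsmodels 0.14.6 and numba 0.67.0.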

Additional observations from a re-analysis of the deposited data

How the results depend on the processing

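No paired analysis was possible because each group had 1 library, and no library could be left out. Of the alternatives, only the precursor limit of 5 points moved the number of late-gaining clusters by over 1.5 times, from 1738 to 892. The other counts were between 1293, with at least 15 positions, and 2355, with a precursor limit of 15 points. Medians are called moved when they left the 95% interval of the main median over clusters. This interval treats the clusters as independent, although the rule chose them by their levels and many lie close together. It measures no spread between replicates. The median gain moved to 31.0 and 32.8 points at precursor limits of 5 and 15 points. The median change from iPSCs to precursors moved from 4.89 to 4.40 points with at least 10 calls, 4.32 with gaps under 50 bp, 5.49 with gaps under 200 bp, 5.15 when positions were thinned to the lowest library, 2.46 and 6.53 at precursor limits of 5 and 15 points, 5.49 with strands merged, and 3.74 at positions of at least 20 precursor calls, which was chosen after seeing the data. The median level in precursors moved from 8.94% to 8.16%, 8.20%, 9.65%, 8.63%, 6.25%, 10.7% and 9.70% under the first 7 of these, in that order, and to 9.35% with at least 3 calls. The median level in iPSC-DA neurons moved to 35.5% with thinning and to 35.3% and 37.1% at precursor limits of 5 and 15 points. In iPSCs the median moved to 3.61% with at least 10 calls, 4.06% with at least 3, 3.82% with at least 15 positions, 3.71% and 4.05% with gaps under 50 and 200 bp, 3.26% with thinning and 4.15% with strands merged. In mdDA neurons it moved to 4.12% with at least 10 calls, 4.70% with at least 3, 4.28% and 4.68% with gaps under 50 and 200 bp, 3.73% with thinning, 4.59% at a precursor limit of 15 points and 4.77% with strands merged. The limit of 20 points fixed the direction of the median gain in advance. The median change from iPSCs to precursors kept its direction in every alternative.

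Flanks of late-gaining clusters called higher in iPSC-DA neurons than in iPSCs fell from 601 to 376 with flanks of 250 bp and to 384 with at least 10 calls, where fewer flanks were tested (470 and 472 in place of 759), and the share called was 80% and 81.4%. Against mdDA neurons the counts were 342 and 358 in place of 552. Against precursors the count was 97 in place of 227 with at least 20 calls, where 190 flanks were tested, and the share called rose from 29.9% to 51.1%. The count of flanks higher in precursors than in iPSCs, a test added after seeing the data, was 203 of 472 (43.0%, against 39.2% over all flanks) with at least 10 calls and 59 of 190 (31.1%, against 31.8%) with at least 20 calls, in place of 376 of 759 (49.5%, against 44.1%). The shallow precursor library limits all statements on the precursors, and 541 clusters had a change whose upper bound reached 10 points. With 1 library per group, no result has been set against a spread between replicates.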
